A study of Mus musculus with 12 samples.

Results

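Chemokines and their receptors were described here across the livers of WT and *Yap1* knockout mice. The genes were all rows of the deposited expression table whose symbol starts with Ccl, Cxcl, Ccr or Cxcr followed by a digit. That rule found 53 of 25676 genes, of which 36 encode ligands and 17 encode receptors. The ligand genes *Ccl1*, *Ccl26*, *Ccl27b* and *Cxcl15* were at 0 in all 12 libraries and were left out, which leaves 49 genes (32 ligands and 17 receptors). The libraries came from flash-frozen whole livers of C57BL/6 mice aged 3 to 4 months, sequenced as bulk RNA. The 4 groups of 3 samples were WT males, WT females, and males and females labelled Foxa3-Cre YAP1 KO (KO below). The *Foxa3* promoter is active in the endoderm from which hepatocytes and bile duct cells arise, so Cre driven by it is used to delete genes in both of these lineages. The labels describe the WT mice as healthy and do not say whether they carried Cre or were littermates of the KO mice. Each library has its own number in the labels, but no label states that each came from a separate animal, so p-values measure only the spread between these samples.

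Chemokines are small secreted proteins that bind heptahelical, G protein-coupled receptors on leukocytes and guide those cells along concentration gradients into tissue. Inflammatory chemokines are induced by cytokines and by injury, while homeostatic ones are made constantly and place cells within organs. In liver, hepatocytes, Kupffer cells (the resident macrophages), sinusoidal endothelium, bile duct cells and stellate cells all can make them. Ligands that carry the residues Glu-Leu-Arg before the CXC motif act on *Cxcr2* and attract neutrophils. *Ccr2* ligands draw monocytes out of the bone marrow, *Ccr1* ligands attract monocytes and macrophages, and *Cxcr3* and *Cxcr6* ligands attract T cells and natural killer cells.

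Values were TPM, transcript levels scaled by gene length and to the same sum in each library, so levels of different genes can be set side by side. The whole-read steps in the values gave 19647455 to 27821600 reads per library, and 27 to 38 of the chemokine genes were above 0 in a WT library and 38 to 43 in a KO library. *Yap1*, the targeted gene, was at 29.5 ± 4.46 TPM (SD, n = 6) in WT and 2.02 ± 0.775 (n = 6) in KO livers, and the groups did not overlap (exact permutation test within sex, two-sided, p = 0.005, the smallest its 400 arrangements can give). *Alb*, the defining hepatocyte transcript, was at 54248 to 83194 TPM in WT and 42088 to 67819 in KO libraries. Over the 12278 genes with a mean of at least 0.5 TPM, the median genotype difference on the log2(TPM + 1) scale was 0.35 as deposited and -0.04 after the columns were rescaled by median-of-ratios size factors. The fold changes of that comparison are therefore to be read against 0.35. The median was 0.44 within males, 0.27 within females and 0.17 for the interaction, and close to 0 for each after rescaling (-0.04, -0.03 and -0.01). Each tested chemokine gene whose genotype call does not hold after rescaling is named.

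The letters upstream of 3 ligand genes are shown because *Cxcl1* and *Cxcl2* are neighbours on chromosome 5 that both rose in KO livers, and *Cxcl14* had the largest genotype difference of all the chemokine genes. Each sequence is the 250 bases before the annotated transcription start, from RefSeq on build GRCm38.p6, written 5′ to 3′ on the gene's own strand. Capitals mark stretches that read GGG, any 5 bases and CC on either strand, the general form of the kappaB element to which NF-kappaB factors bind. The windows are chr5:90890995-90891244 (plus strand) for *Cxcl1*, chr5:90903649-90903898 (plus strand) for *Cxcl2* and chr13:56296552-56296801 (minus strand) for *Cxcl14*.
*Cxcl1*: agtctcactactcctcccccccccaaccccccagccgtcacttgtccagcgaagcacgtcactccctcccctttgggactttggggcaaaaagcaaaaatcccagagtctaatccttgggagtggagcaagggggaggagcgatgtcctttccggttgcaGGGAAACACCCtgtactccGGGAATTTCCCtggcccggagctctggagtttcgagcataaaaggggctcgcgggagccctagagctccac
*Cxcl2*: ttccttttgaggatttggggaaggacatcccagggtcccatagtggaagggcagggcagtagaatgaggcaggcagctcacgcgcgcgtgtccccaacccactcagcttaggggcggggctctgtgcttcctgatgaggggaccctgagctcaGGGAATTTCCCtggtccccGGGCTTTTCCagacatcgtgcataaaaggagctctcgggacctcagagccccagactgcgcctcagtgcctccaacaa
*Cxcl14*: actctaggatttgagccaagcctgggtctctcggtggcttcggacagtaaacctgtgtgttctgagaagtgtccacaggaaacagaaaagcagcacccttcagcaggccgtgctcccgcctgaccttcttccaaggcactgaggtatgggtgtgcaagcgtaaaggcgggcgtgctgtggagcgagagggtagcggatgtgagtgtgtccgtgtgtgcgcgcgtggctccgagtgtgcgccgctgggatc
The *Cxcl1* and *Cxcl2* windows held 2 such stretches each, whose nearest matches began 70 and 78 bases before the start, and the *Cxcl14* window held 0. RefSeq promoter entries were found for 38 of the 53 genes. The motif lay in 22 of those 38 windows (57.9%) and in 45.4% of the 27025 promoters of all genes. It lay in 5 of the 9 windows of chemokine genes that were higher in KO livers and in 6 of the 9 windows of tested genes that did not pass. The TEAD motif GGAATG, which is bound by the DNA-binding partners of *Yap1*, lay in 6 of 38 windows (15.8%) against 12.6% of all promoters, in 0 of the 9 windows of genes that were higher and in 1 of the 9 of tested genes that did not pass. The AP-1 motif TGANTCA lay in 4 of 38 (10.5%) against 6.87% of all promoters, in 2 of the 9 windows of genes that were higher and in 0 of the 9 of tested genes that did not pass. A match of so short a motif is a description of the letters and not a binding site.

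Of the 49 genes, 26 (20 ligands and 6 receptors) had a mean of at least 0.5 TPM and were tested. That mean was over both genotypes. *Ccr1*, *Ccl7*, *Ccl4*, *Ccr2*, *Cxcr3* and *Cxcr6* had WT means of 0.0817, 0.134, 0.154, 0.341, 0.353 and 0.450 TPM and met the limit only through KO libraries. For these genes a higher level in KO was thus partly set by the limit, and the counts of higher genes and of genes without overlap include some of them. In the comparison of KO with WT livers with sex as a covariate, 15 of the 26 were higher and 0 were lower at a limma adjusted p under 0.05, beside 50.1% higher and 4.82% lower of all genes tested, so the share called was near that of all genes. No tested chemokine gene was lower at an unadjusted p under 0.05 either. After rescaling, 12 were higher and 4 lower, beside 20.9% and 18.7% of all genes. The 6 KO values lay wholly above the 6 WT values for 9 genes and wholly below them for 0, beside 28.7% and 1.88% of all genes tested. The median log2 fold change of the 26 was 0.99 as deposited and 0.65 after rescaling, against 0.35 and -0.04 for all genes. The 11 ligands that rose were *Cxcl14*, *Cxcl1*, *Ccl2*, *Ccl6*, *Cxcl2*, *Cxcl16*, *Ccl7*, *Ccl4*, *Cxcl10*, *Ccl24* and *Ccl9*, and the receptors that rose included *Ccr2*, *Cxcr4* and *Ccr1*. *Ccl9*, *Ccl24* and *Cxcl10* did not pass after rescaling. The 15 calls all held when any 1 of the 12 libraries was left out.

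**Figure D1:**
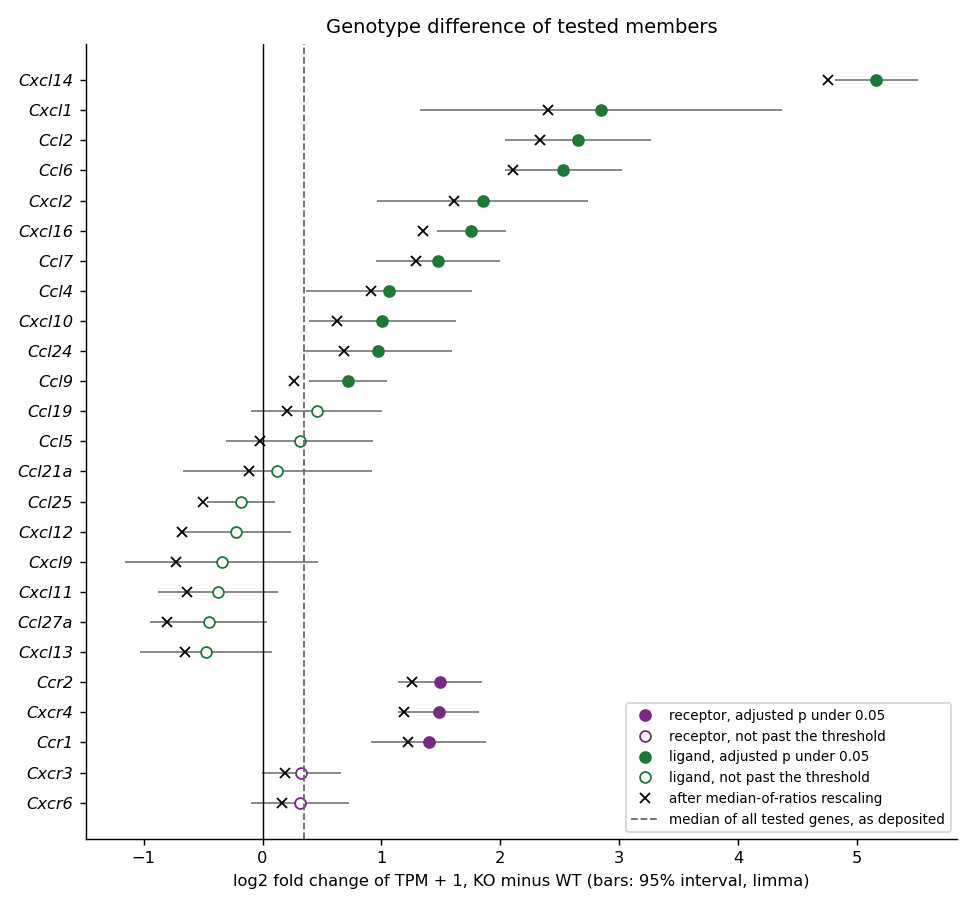
Genotype difference of tested genes on the log2(TPM + 1) scale, KO minus WT, with 95% intervals from limma over 12 libraries; filled points passed at an adjusted p under 0.05 and crosses give the value after rescaling. The filled points lie between 0.72 (*Ccl9*) and 5.16 (*Cxcl14*), and the dashed line marks the median of all tested genes, 0.35.

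The summed level of the 32 ligands was higher in every KO library than in any WT library. It was 146 TPM in the lowest WT library, 207 at the median and 222 in the highest, and 397, 457 and 696 TPM in KO libraries. The summed level of the 17 receptors was far lower, at 2.25, 3.46 and 5.04 TPM in WT and 10.7, 15.5 and 22.8 TPM in KO libraries, again without overlap. These sums are given with no test.

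The make-up of the ligand pool also differed. *Cxcl12*, a homeostatic ligand, made up 50.2% to 54.6% of ligand TPM in the 3 WT females and WT male 3, but 21.9% and 17.5% in WT males 1 and 2, where *Cxcl1* made up 26.8% and 56.4%. In KO libraries *Cxcl12* held 7.44% to 21.2%. *Cxcl14* went from 0.767% to 1.88% of the pool in WT to 16.4% to 40.2% in KO libraries, and *Ccl6* from 1.92% to 4.55% to between 4.75% and 9.51%. Among KO libraries *Cxcl1* was the largest single share in male 2 (44.9%) and in females 2 and 3 (36.5% and 27.9%), *Cxcl14* in males 1 and 3 (29.7% and 40.2%), and *Cxcl12* in female 1 (21.2%). Each share depends on all the others, so they are a description of the pool and not separate tests.

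**Figure D2:**
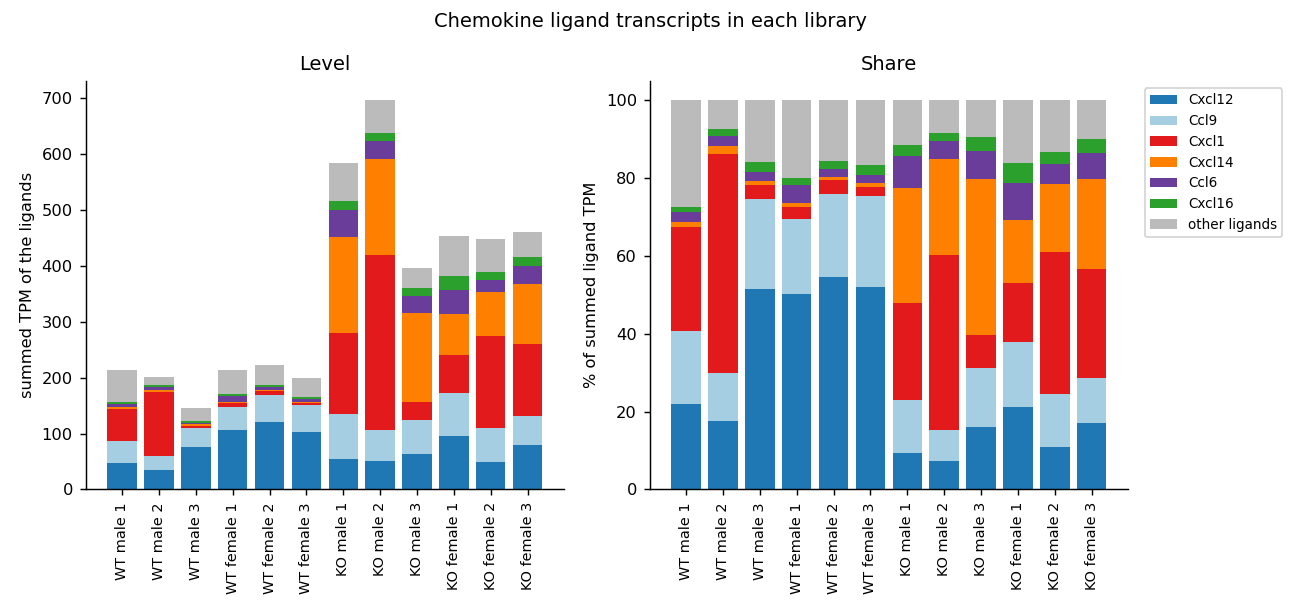
Summed TPM of the ligand genes in each of the 12 libraries (left) and the percent of that sum held by each of 6 ligands (right), with all other ligands in grey. The WT bars reach 146 to 222 TPM and the KO bars 397 to 696 TPM, and the *Cxcl14* share is 16.4% to 40.2% in KO libraries.

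Neutrophil ligands were higher in KO livers, but 2 of the 6 WT libraries were high as well. *Cxcl1*, the chief neutrophil attractant of mouse liver, was at 57.4, 114 and 5.30 TPM in the 3 WT males, 6.72, 8.41 and 4.40 in WT females, 145, 312 and 33.2 in KO males and 68.2, 164 and 129 in KO females. WT males 1 and 2 thus lay above KO male 3 and WT male 2 above KO female 1, while the 3 WT females lay below every KO female. The genotype difference was 2.85 on the log2 scale (SE 0.706, limma adjusted p = 0.00406, n = 6 and 6), and it was between 2.42 and 3.36 with any 1 library left out. *Cxcl2*, which also acts through *Cxcr2*, was at 2.94, 0.570 and 0 TPM in WT males, 0, 0.0507 and 0.115 in WT females, 9.78, 5.70 and 1.17 in KO males and 1.87, 7.76 and 3.07 in KO females. WT male 1 was the only WT library of *Cxcl2* to reach the KO range, and the difference was 1.85 (SE 0.412, limma adjusted p = 0.00198). *Cxcl5*, a neutrophil ligand of epithelium, had 0 to 3 reads in a WT library and 3 to 9 in a KO library. Its mean was under the limit for testing, and without that limit it passed at a log2 fold change of 0.36 (SE 0.0576). *Cxcl3* was above 0 only in KO males 1 and 2, at 0.105 TPM in each.

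The receptors of these ligands were low in every library. *Cxcr2*, carried by neutrophils, was at 0.568, 1.04 and 0.0753 TPM in WT males, 0.159, 0 and 0.0466 in WT females, 0.349, 0.422 and 0.301 in KO males and 0.457, 0.578 and 0.461 in KO females. WT males 1 and 2, the libraries with high *Cxcl1*, held the highest WT values, and the groups overlapped. With no limit on low values its genotype difference was 0.17 (SE 0.153, 95% interval -0.17 to 0.50, limma adjusted p = 0.427), from at most 39 reads in a library. It was 0.49 in females (SE 0.177, limma adjusted p = 0.0690) and -0.16 in males (SE 0.177, limma adjusted p = 0.553). The interaction of -0.64 did not pass (SE 0.251, limma adjusted p = 0.553). *Cxcr1*, the related receptor, had at most 3 reads in any library.

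Of 10 neutrophil markers 6 were tested and 4 rose, *S100a8*, *S100a9* and *Csf3r* the most, of which 1 (*Csf3r*) held after rescaling. Of all genes tested, 50.1% were higher as deposited and 20.9% after rescaling, so these counts set the markers little apart. *S100a8* and *S100a9* are made by monocytes as well. *S100a8*, a subunit of calprotectin, rose by 1.48 (SE 0.483), and its level was 0 to 6.39 TPM in WT and 3.07 to 19.0 in KO libraries. The summed level of the 10 was 14.9, 21.4 and 0.374 TPM in WT males, 18.1, 14.0 and 4.78 in WT females, 31.8, 35.3 and 13.6 in KO males and 48.0, 19.2 and 48.1 in KO females. WT female 1 thus lay between WT males 1 and 2 in marker level, with a *Cxcl1* of 6.72 TPM. *Ly6g*, the defining surface marker of mouse neutrophils, was at 0 in all 6 WT and in 4 of 6 KO libraries. In whole tissue, fewer cells of a type and less RNA per cell cannot be told apart, here and in each group below. The part of these markers in the result was not tested.

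**Figure D3:**
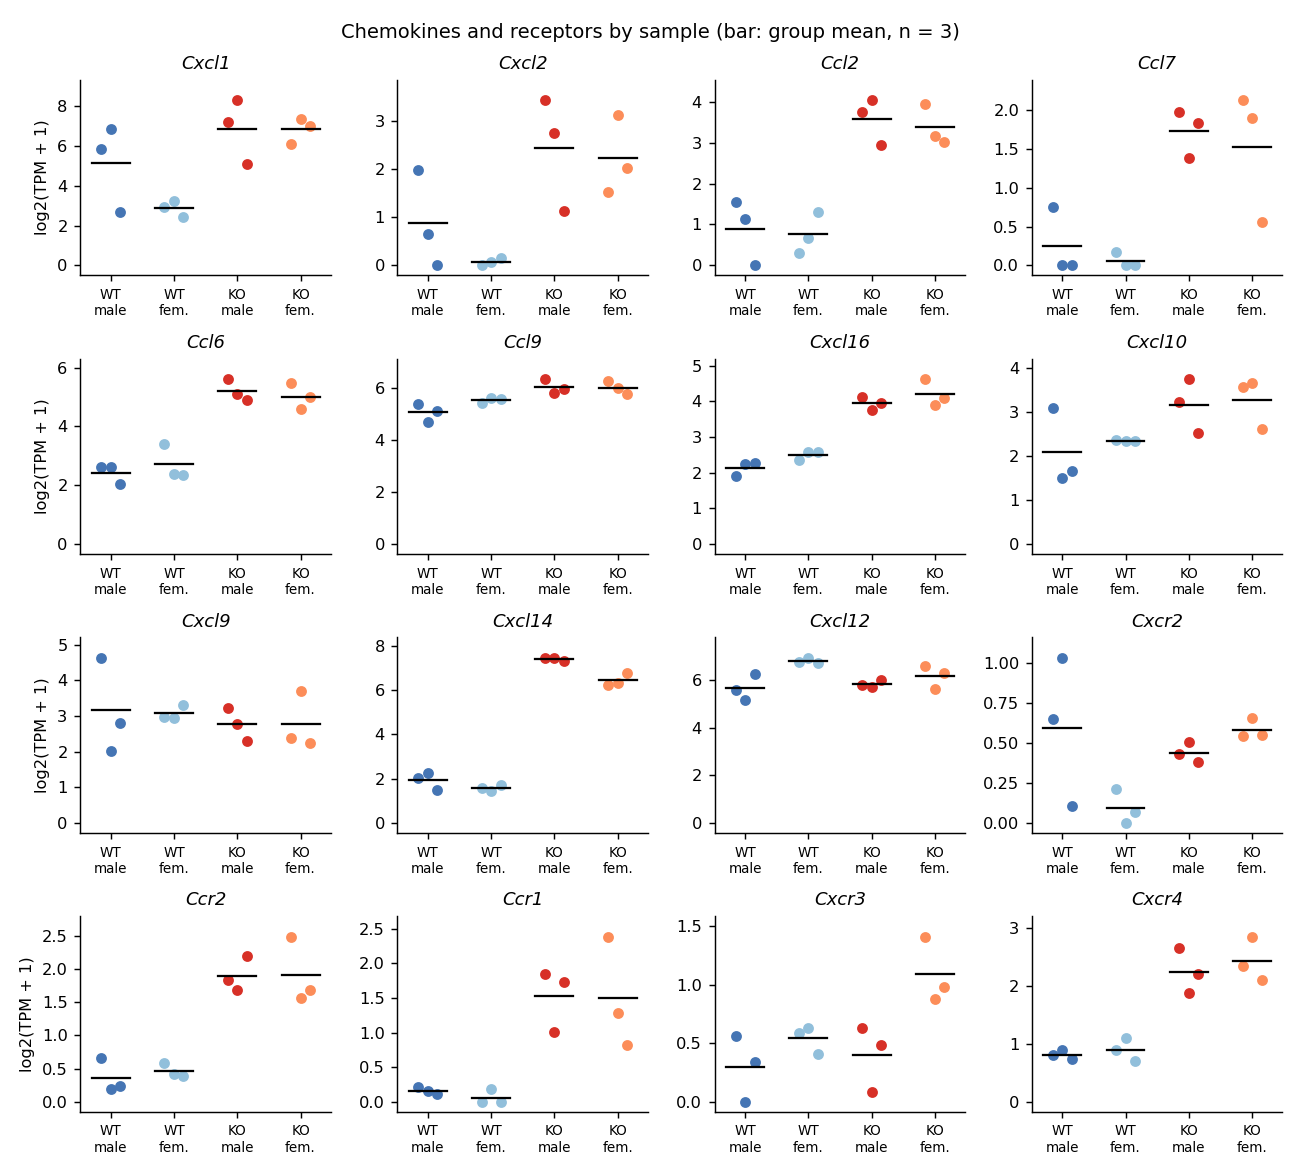
log2(TPM + 1) of 16 ligands and receptors in the 12 libraries, 3 per group; points are libraries and bars are group means. The *Cxcl14* points lie at 74.2 TPM or more in all KO libraries and at 3.79 TPM or less in all WT libraries, while WT males 1 and 2 lie in the KO range for *Cxcl1*.

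Monocyte ligands of the *Ccr2* class rose together with their receptor. *Ccl2*, the main monocyte attractant, was at 1.91, 1.20 and 0 TPM in WT males, 0.239, 0.580 and 1.49 in WT females, 12.4, 15.4 and 6.63 in KO males and 14.4, 8.04 and 7.14 in KO females. No WT library came near the KO range, and the ratio of the mean TPM was 11.8 (log2 difference 2.65, SE 0.284, limma adjusted p = 5.73e-06). *Ccl7*, encoded beside it, had 6 reads in WT male 1, 1 in WT female 1 and 0 in the other 4 WT libraries, and 22, 12 and 18 reads in KO males and 31, 21 and 4 in KO females. Its difference was 1.48 (SE 0.241, limma adjusted p = 0.000201), with KO female 3 below WT male 1. The other ligands of the class, *Ccl8* and *Ccl12*, had at most 4 and 7 reads in any library and were not tested.

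*Ccr2*, which marks inflammatory monocytes, was at 0.580, 0.145 and 0.181 TPM in WT males, 0.502, 0.335 and 0.305 in WT females, 2.56, 2.20 and 3.58 in KO males and 4.60, 1.96 and 2.20 in KO females. The groups did not overlap, with 12 to 43 reads in WT and 128 to 357 in KO libraries. The difference was 1.49 (SE 0.166, limma adjusted p = 7.63e-06). KO female 1 was the highest library for *Ccr2*. It was also the highest for the summed monocyte markers, at 42.2 TPM beside 18.4 to 23.9 in the other KO and 3.43 to 12.3 in WT libraries. This was not particular to monocytes. The same library was the highest for summed Kupffer cell and macrophage (713 TPM), T cell (6.27), sinusoidal endothelium (85.0) and stellate cell (92.45) markers. Of 6 monocyte markers 4 were tested and all 4 rose (*Plac8* by 1.57, *Ly6c2* by 1.07 and *Chil3* by 0.94 the most), beside 50.1% of all genes tested. Within males 4 passed and 2 after rescaling, and within females 2 passed and 1 after rescaling. The part of these markers in the chemokine differences was not tested.

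Of 4 tested ligands that attract monocytes and macrophages by receptors other than *Ccr2*, 3 rose, as did the receptor *Ccr1*. *Ccl6*, a rodent ligand of *Ccr1* made by macrophages and other myeloid cells, was at 5.13, 5.21 and 3.08 TPM in WT males, 9.70, 4.26 and 4.04 in WT females, 47.7, 33.0 and 28.7 in KO males and 43.1, 22.9 and 30.7 in KO females. The lowest KO library exceeded the highest WT library, and the difference was 2.53 (SE 0.227, limma adjusted p = 1.17e-06). *Ccl9*, its neighbour and likewise a rodent *Ccr1* ligand, was the most abundant CC chemokine: 40.3, 25.0 and 33.6 TPM in WT males, 41.1, 47.1 and 46.7 in WT females, 79.2, 54.5 and 60.2 in KO males and 76.0, 61.9 and 53.1 in KO females. These groups did not overlap, at a difference of 0.72 (SE 0.151, limma adjusted p = 0.00132). After rescaling it was 0.26 and did not pass.

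*Ccl4*, made by activated macrophages and lymphocytes, had 5, 0 and 2 reads in WT males, 0 in each WT female, 16, 1 and 4 in KO males and 37, 7 and 7 in KO females. The difference was 1.06 (SE 0.323, limma adjusted p = 0.0134), with KO male 2 below WT males 1 and 3 and KO male 3 level with WT male 1. *Ccl3*, its close relative, had at most 3 reads in a WT and 2 to 13 in a KO library. Untested at the main limit, it passed without it (0.52, SE 0.140). *Ccl5*, a ligand of *Ccr1* that is abundant in T cells and natural killer cells, was at 4.97, 1.07 and 2.01 TPM in WT males, 5.47, 3.37 and 3.07 in WT females, 6.00, 3.83 and 1.51 in KO males and 6.87, 4.68 and 3.17 in KO females. Its groups overlapped throughout, the difference was 0.31 (SE 0.288, 95% interval -0.31 to 0.93), and its sign turned after rescaling (-0.02).

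*Ccr1*, a receptor of *Ccl6*, *Ccl9*, *Ccl3* and *Ccl5* on monocytes, macrophages and neutrophils, had 5, 4 and 3 reads in WT males and 0, 4 and 0 in WT females. In KO livers it had 69, 27 and 57 reads in males and 137, 39 and 23 in females, without overlap. The ratio of mean TPM was 25.1 and the log2 difference 1.40 (SE 0.225, limma adjusted p = 0.000174), which is small because adding 1 TPM damps low genes. *Ccr1l1*, a neighbouring receptor-like gene of rodents, had 0 reads in all WT and 0 to 7 in KO libraries. Reads of *Ccr1* and *Ccr1l1* may be shared by sequence likeness, and how the authors counted such reads is not given in the sources used here.

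Macrophage markers moved with these genes. All 8 Kupffer cell and macrophage markers tested rose, 7 of them after rescaling, led by *Marco* (3.49), *Cd68* (2.48) and *Cd5l* (2.33). The shares of all genes tested that were higher were 50.1% as deposited and 20.9% after rescaling. All 5 markers of scar-associated macrophages rose (*Cd9* by 3.52, *Lgals3* by 3.51 and *Trem2* by 3.30), 2 of which, *Cd9* and *Lgals3*, are also made by bile duct cells. The summed Kupffer cell and macrophage level was 72.1 to 235 TPM in WT and 344 to 713 in KO libraries, and the part of these markers in the chemokine differences was not tested.

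**Figure D4:**
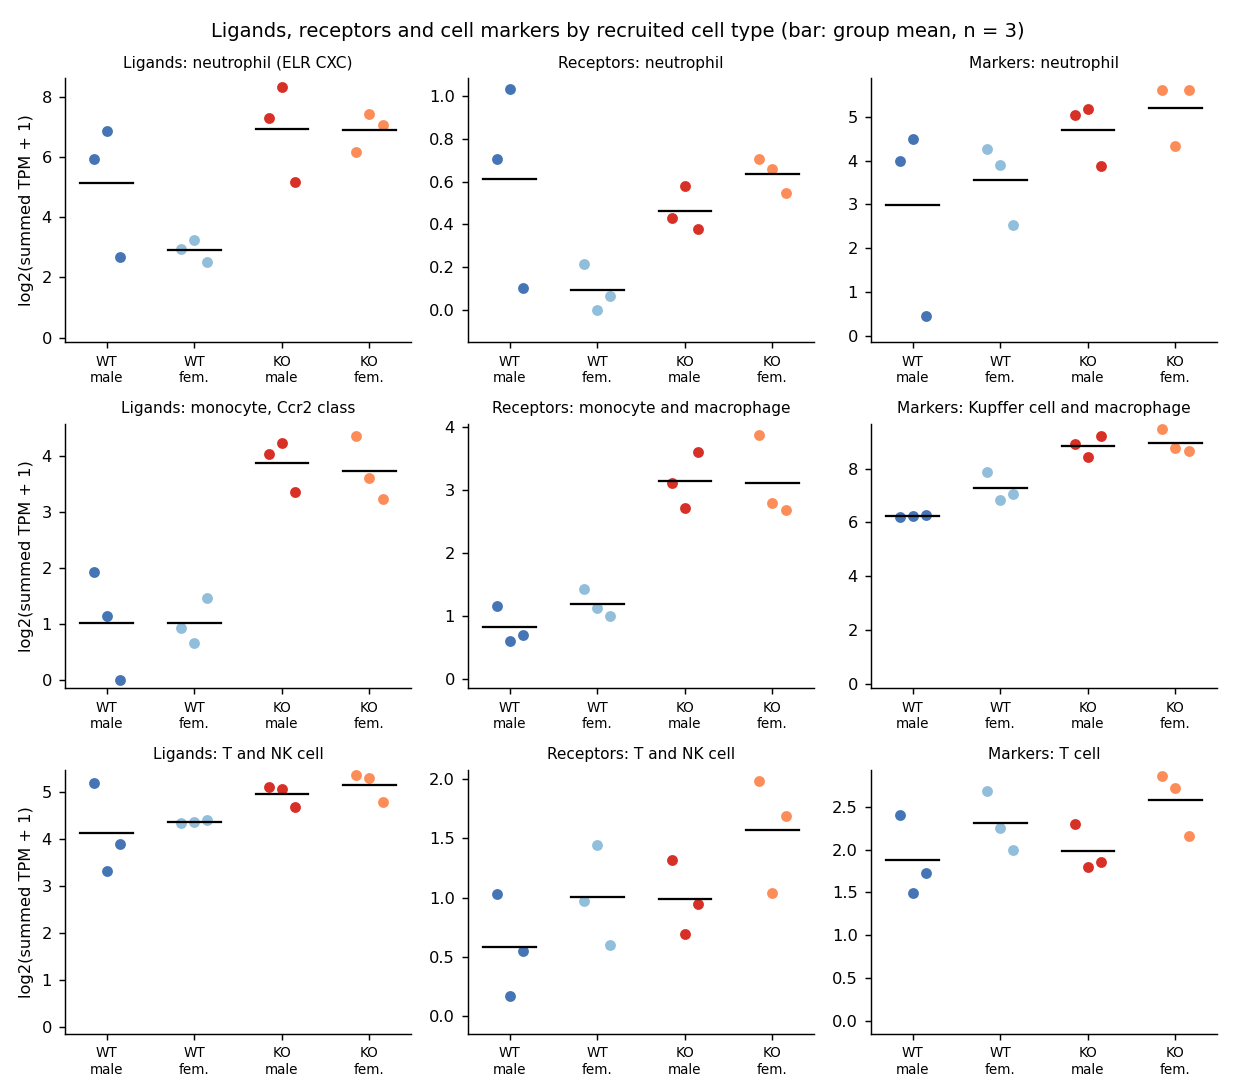
log2(summed TPM + 1) of ligands (left), receptors (middle) and cell markers (right) for neutrophils (top), monocytes and macrophages (middle row) and T and natural killer cells (bottom). The middle row holds *Ccr2* class ligands and Kupffer cell and macrophage markers only, and the bottom row holds T cell markers without natural killer cell markers. Points are libraries, 3 per group, and bars are group means. The monocyte receptors and the macrophage markers separate KO from WT, while neutrophil receptors and T cell markers overlap between genotypes.

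Of 4 ligands of T cells and natural killer cells 2 rose and 2 did not pass, while 50.1% of all genes tested were higher. After rescaling 1 was higher and 1 lower, beside 20.9% and 18.7% of all genes. The counts of this class were thus near those of all genes. *Cxcl16*, a membrane-bound ligand of *Cxcr6* that holds natural killer T cells in the sinusoids, was at 2.77, 3.74 and 3.83 TPM in WT males, 4.10, 4.93 and 4.92 in WT females, 16.4, 12.6 and 14.4 in KO males and 23.5, 14.0 and 16.1 in KO females. Its groups were far apart, at 1.76 (SE 0.134, limma adjusted p = 2.53e-07). *Cxcl10*, an interferon-induced *Cxcr3* ligand, was at 7.62, 1.82 and 2.17 TPM in WT males, 4.15, 4.10 and 4.11 in WT females, 8.47, 12.5 and 4.76 in KO males and 11.0, 11.6 and 5.11 in KO females. It rose by 1.01 (SE 0.287, limma adjusted p = 0.00953) with WT male 1 above KO male 3 and KO female 3, and it did not pass after rescaling (0.63). *Cxcl9*, the interferon-gamma-induced *Cxcr3* ligand encoded beside it, was at 23.7, 3.07 and 6.04 TPM in WT males, 6.85, 6.66 and 8.92 in WT females, 8.36, 5.89 and 3.93 in KO males and 4.22, 12.1 and 3.70 in KO females. WT male 1 held the highest value, and the difference of -0.34 (SE 0.377, 95% interval -1.15 to 0.47) did not pass. It was -0.59 to -0.01 when single libraries were left out. *Cxcl11*, whose reading frame is broken in C57BL/6 mice, was at 2.35 ± 1.45 TPM in WT and 1.41 ± 0.460 in KO (SD, n = 6 each), at -0.37 (SE 0.233). It was lower after rescaling (-0.63) and when WT male 2 was left out (-0.57).

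Neither receptor of the class passed. *Cxcr3* was at 0.474, 0 and 0.265 TPM in WT males, 0.504, 0.545 and 0.328 in WT females, 0.553, 0.0619 and 0.398 in KO males and 1.66, 0.839 and 0.974 in KO females. The 3 KO females were highest and the males of both genotypes overlapped, at 0.33 overall (SE 0.154, 95% interval -0.01 to 0.66, limma adjusted p = 0.0879). It passed when WT male 1 (0.41) or KO male 2 (0.42) was left out. *Cxcr6* was at 0.567, 0.127 and 0.198 TPM in WT males, 0.452, 1.17 and 0.184 in WT females, 0.936, 0.555 and 0.535 in KO males and 1.31, 0.215 and 1.26 in KO females. The groups overlapped at 0.32 (SE 0.191, limma adjusted p = 0.176), and it passed when KO female 2 was left out (0.46). Of 7 T cell markers 4 were tested, and 0 of them changed by limma in both sexes together, also at an unadjusted p under 0.05. Within males *Cd4* was lower at an unadjusted p under 0.05 by limma, and after rescaling 1 of the 4 was lower, beside 10.2% of all genes. Their summed level, 1.81 to 5.43 TPM in WT and 2.49 to 6.27 in KO libraries, overlapped. The 1 natural killer cell marker tested did not pass either, and the summed level of 5 such markers was 0.152 to 1.94 TPM in WT and 0.635 to 1.68 in KO libraries. Of the B cell and dendritic cell markers, 1 of 2 (*Cd79b*, 0.51) and 1 of 3 (*Itgax*, 1.47) rose, beside 50.1% of all genes tested. *Cd79b* did not pass after rescaling.

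Among the homeostatic ligands, *Cxcl14* showed the largest difference of any chemokine gene. *Cxcl14*, made by many epithelia and with a receptor that is still debated, was at 3.09, 3.79 and 1.80 TPM in WT males, 2.02, 1.70 and 2.29 in WT females, 173, 172 and 159 in KO males and 74.2, 77.9 and 107 in KO females. The 4 groups kept apart from each other by genotype, and the KO males were all above the KO females. The ratio of mean TPM was 52.0 and the log2 difference 5.16 (SE 0.162, limma adjusted p = 9.96e-11). *Cxcl12*, the *Cxcr4* ligand that retains leukocytes and their precursors in tissue, showed no such difference. It was at 46.9, 35.4 and 75.5 TPM in WT males, 107, 121 and 104 in WT females, 54.9, 51.7 and 63.7 in KO males and 96.0, 48.5 and 78.8 in KO females. Its overall difference of -0.22 (SE 0.214, 95% interval -0.68 to 0.24) did not pass as deposited, and after rescaling it was lower (-0.68). The WT females were the 3 highest libraries, above every KO library. *Cxcr4* was at 0.756, 0.856 and 0.677 TPM in WT males, 0.858, 1.15 and 0.629 in WT females, 5.29, 2.67 and 3.62 in KO males and 4.09, 6.20 and 3.32 in KO females. All KO libraries exceeded all WT libraries, and the difference was 1.48 (SE 0.157, limma adjusted p = 5.13e-06). *Cxcl17*, a mucosal ligand, had 2 reads in KO female 3 and 0 elsewhere.

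The remaining ligands were low. *Ccl24*, an eosinophil attractant also made by macrophages, was at 1.13, 0.377 and 0.355 TPM in WT males, 4.27, 2.26 and 1.04 in WT females, 3.94, 3.39 and 3.81 in KO males and 5.98, 2.24 and 2.31 in KO females. The WT males and WT female 3 lay below every KO library, WT females 1 and 2 lay within the KO range, and the difference of 0.97 (SE 0.292, limma adjusted p = 0.0127) did not pass after rescaling (0.68). Its receptor *Ccr3* had 1, 0 and 0 reads in WT males, 0, 0 and 4 in WT females, 4, 3 and 1 in KO males and 7, 1 and 0 in KO females, and the other eotaxin *Ccl11* at most 6. Of 5 eosinophil markers none was abundant enough to be tested. Their summed level was 0 to 0.116 TPM in WT and 0.126 to 0.629 in KO libraries, without overlap. *Siglecf*, a surface marker of eosinophils, was at 0 to 0.0896 TPM in WT and 0.118 to 0.574 in KO libraries, and the granule genes *Epx* and *Ear6* were at 0 in all 12 libraries. The granule gene *Prg2* was at 0.116 TPM in WT female 1 and 0.511 in KO male 2 and 0 elsewhere, and the receptor gene *Il5ra* at 0.0264 and 0.0397 TPM in WT females 2 and 3 and 0 elsewhere. The part of these markers in the *Ccl24* difference was not tested.

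The lymphoid ligands *Ccl19*, *Ccl21a* (both *Ccr7* ligands) and *Cxcl13* (*Cxcr5*) were at 1.01 ± 0.489, 1.19 ± 1.11 and 1.32 ± 0.853 TPM in WT and at 1.92 ± 1.22, 1.49 ± 1.50 and 0.664 ± 0.605 TPM in KO (SD, n = 6 each). Their differences of 0.45, 0.12 and -0.47 did not pass, and the sign of *Ccl21a* turned after rescaling (-0.12) and when WT female 2, KO male 3 or KO female 3 was left out. *Ccl19* was at 0.876, 0.685 and 1.01 TPM in WT males, 1.98, 0.679 and 0.853 in WT females, 3.32, 0.771 and 0.964 in KO males and 3.13, 0.747 and 2.59 in KO females, with 3 KO libraries above all WT libraries and the other 3 among them. *Ccl19* passed without KO female 2 (0.62) and *Cxcl13* without KO male 1 (-0.64). *Ccl27a* was at 3.71, 1.79 and 4.55 TPM in WT males, 7.08, 8.83 and 6.70 in WT females, 3.09, 3.32 and 1.63 in KO males and 7.36, 2.75 and 3.69 in KO females, and the groups overlapped. The homing ligands *Ccl27a* of skin and *Ccl25* of gut and thymus were at 5.44 ± 2.57 and 2.41 ± 0.400 TPM in WT and 3.64 ± 1.95 and 2.02 ± 0.499 TPM in KO. Their differences of -0.45 and -0.18 did not pass as deposited, and both were lower after rescaling (-0.80 and -0.50). *Ccl27a* also passed as lower without WT male 2 (-0.61) or KO female 1 (-0.57). *Ccl21a*, *Ccl21b* and *Ccl27a* belong to families of near-identical copies in the mouse genome, so reads may be split between copies and their levels are uncertain.

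In all, 23 genes were above 0 and under the limit for testing. Whole reads could be recovered for 21 of them, and 20 of those had at most 20 reads in every library. Besides those named above they were the ligands *Ccl17*, *Ccl20*, *Ccl22* and *Ccl28* and the receptors *Ccr4*, *Ccr6*, *Ccr7*, *Ccr8*, *Ccr9*, *Ccr10* and *Cxcr5*, which mark or attract dendritic cells, helper and regulatory T cells, B cells and mucosal lymphocytes. Without the limit, 19 of 49 genes passed as higher, beside 38% of all genes at that setting, so the share was near that of all genes. They were the 15 above plus *Cxcl5*, *Ccl3*, *Ccr7* and *Ccr10*. *Ccr7*, the receptor of migrating dendritic cells and naive T cells, had 7, 1 and 8 reads in WT males, 4, 10 and 6 in WT females, 12, 7 and 10 in KO males and 18, 8 and 11 in KO females, with overlap (0.31, SE 0.0863). *Ccr10*, a receptor of skin-homing T cells and plasma cells, had 0, 2 and 0 reads in WT males, 2, 0 and 0 in WT females, 3, 10 and 16 in KO males and 3, 3 and 1 in KO females, with KO males 2 and 3 highest (0.37, SE 0.128). *Ccl22*, a dendritic cell product that attracts regulatory T cells through *Ccr4*, had 4, 0 and 1 reads in WT males, 3, 0 and 1 in WT females, 8, 1 and 0 in KO males and 4, 10 and 11 in KO females, and the groups overlapped. *Ccr8*, on regulatory T cells, had 4 and 1 reads in KO females 2 and 3, and *Ccl20*, the *Ccr6* ligand, 2 in KO female 1, with 0 elsewhere. *Ccr6* was at 0.326 and 0.452 TPM in WT females 1 and 2 and at 0.0514 and 0.110 TPM in KO males 2 and 3, and at 0 elsewhere. The other 19 genes under the limit did not pass in the genotype comparison, and 1 of them (*Ccl22*) reached an unadjusted p under 0.05 by limma. Within males 6 of the 23 reached that level as higher, of which 2 (*Cxcl5* and *Ccr10*) passed, and within females 7 as higher and 1 as lower, of which 2 (*Cxcl5* and *Ccl3*) passed. *Ccr9*, the gut-homing receptor, was at 0.24 in males without overlap (SE 0.0844, limma adjusted p = 0.0529), at -0.03 in females, and its interaction of 0.27 had a limma adjusted p of 0.624. For the interaction, 3 of the 23 reached an unadjusted p under 0.05 as higher (*Ccr6*, *Ccr9* and *Ccr10*) and 1 as lower (*Cxcr2*), and 0 passed. No share of all genes is given at an unadjusted p, so such counts are a description only. A library with 0 reads allows up to 3.

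Most of these genes lie in clusters, a feature the symbols only partly reflect. In the GRCm38 annotation, with neighbours joined when closer than 1000000 bases, 37 of the 53 genes lay in 9 clusters of more than 1 gene and 16 stood alone. On chromosome 5 from 90759360 to 90905938, which holds *Cxcl5*, *Cxcl3*, *Cxcl15*, *Cxcl1* and *Cxcl2*, both tested genes rose. Some distance away, from 92321347 to 92365485, the *Cxcr3* ligands *Cxcl9*, *Cxcl10* and *Cxcl11* lie side by side, and 1 of 3 rose, with a range of -0.37 to 1.01. On chromosome 11 the cluster from 82035571 to 82305690 (*Ccl2*, *Ccl7*, *Ccl11*, *Ccl12*, *Ccl8* and *Ccl1*) had both of its tested genes higher, and that from 83525778 to 83664683 (*Ccl5*, *Ccl9*, *Ccl6*, *Ccl3* and *Ccl4*) had 3 of 4 higher. In the cluster on chromosome 4 from 41769467 to 42773993 (*Ccl27a*, *Ccl21b*, *Ccl27b*, *Ccl19* and *Ccl21a*) 0 of 3 tested genes changed by limma, also at an unadjusted p under 0.05. With 50.1% of all tested genes higher, counts over so few genes are a description of each cluster only. Genes of 1 cluster differed among themselves: *Ccl6* rose by 2.53 and *Ccl5*, in the same cluster, differed by 0.31.

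Within males, 13 of the 26 genes were higher and 0 lower, beside 43.3% and 2.81% of all genes tested. Within females, 12 were higher and 0 lower, beside 29.1% and 4.68%. The 3 KO males lay above the 3 WT males for 11 genes and below for 0, beside 50.8% and 3.42% of all genes. The 3 KO females lay above the 3 WT females for 15 genes and below for 2 (*Cxcl11* and *Cxcl12*), beside 43.5% and 7.88%. After rescaling the counts were 10 higher and 1 lower in males, beside 13.9% and 10.2% of all genes, and 12 higher and 3 lower in females, beside 15.2% and 10.9%. By limma at an unadjusted p under 0.05, 0 were lower in males and 3 were lower in females (*Cxcl11*, *Cxcl12* and *Cxcl13*). For these 2 counts no share of all genes is given. The 10 genes that rose in both sexes (76.9% of the list in males and 83.3% of that in females) included *Cxcl14*, *Ccl2*, *Ccl6*, *Cxcl2*, *Cxcl16*, *Ccl7*, *Ccr1*, *Ccr2* and *Cxcr4*. *Ccl24*, *Ccl9* and *Cxcl10* passed in males and *Cxcl1* and *Ccl4* in females.

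Some within-sex calls were lost when single libraries were left out. In males *Cxcl2* (1.56, SE 0.587, limma adjusted p = 0.0457) and *Cxcl10* (1.08, SE 0.417, limma adjusted p = 0.0491) were near the threshold. With single libraries left out, their adjusted p ran from 0.00989 to 0.171 and from 0.00491 to 0.179, and neither passed after rescaling or without the limit on low values. *Ccl9* in males (0.96) did not pass after rescaling (0.39). In females *Cxcl2* (2.15) did not pass without KO female 2 (1.70), nor *Ccl4* (1.54) without KO female 1 (1.03). *Cxcl1* was 3.96 in females (SE 0.926, limma adjusted p = 0.00561) and 1.74 in males (SE 0.926, limma adjusted p = 0.139), where it passed when WT male 2 was left out. Other calls were gained as well: in females *Ccl9* passed as higher without WT male 2, *Cxcl10* without WT male 1 or KO female 3, and *Cxcr3* without WT male 2, KO male 2 or KO female 2. Also in females, *Cxcl11* passed as lower without WT male 2, WT male 3, WT female 3 or KO male 1, *Cxcl12* without WT male 3 or KO female 1, *Ccl27a* without KO female 1, and *Cxcl13* without KO female 3.

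The difference between the sexes was tested directly. By limma, 0 of the 26 genes had a genotype by sex interaction, beside 0.912% of all genes tested, and 2 reached an unadjusted p under 0.05. These were *Cxcl14*, whose male minus female effect was 0.63 (SE 0.284, limma adjusted p = 0.556), and *Ccl24* (1.21, SE 0.495, limma adjusted p = 0.494). For *Cxcl1* the interaction was -2.23, with a 95% interval of -5.06 to 0.61, so these data do not set the 2 sexes apart for it, nor show that they are alike. Among WT livers 1 gene differed between the sexes, beside 1.14% of all genes higher and 4.6% lower in males, and the median of all genes was -0.19 as deposited and -0.01 after rescaling. At an unadjusted p under 0.05 by limma, 1 was higher (*Cxcl1*) and 5 lower in WT males (*Ccl24*, *Ccl27a*, *Ccl9*, *Cxcl11* and *Cxcl12*). No share of all genes is given at an unadjusted p, so the counts at that level in this paragraph are a description only. *Cxcl12* was lower in WT males by 1.12 (SE 0.268, limma adjusted p = 0.0296), and every WT male lay below every WT female. That held for 6 of the 26 genes, *Ccl9*, *Ccl27a*, *Cxcl11* and *Cxcl16* among them, beside 27.5% of all genes. The *Cxcl12* call held after rescaling (-0.90), but it was lost without the limit on low values and when any 1 of 5 WT libraries was left out. Among KO livers 0 genes differed by limma, beside 0.0814% of all genes, and 2 did at an unadjusted p under 0.05. The male minus female difference was 0.97 for *Cxcl14* (SE 0.201, limma adjusted p = 0.274), without overlap between the sexes as for 4.41% of all genes, and -0.69 for *Cxcr3* (SE 0.207, limma adjusted p = 0.744).

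**Figure D5:**
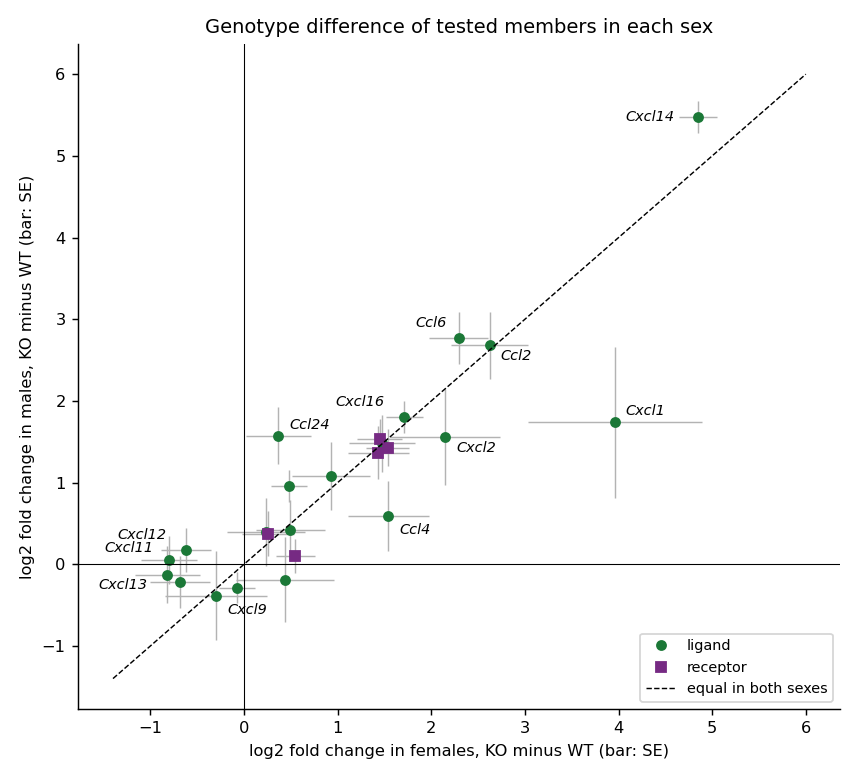
Genotype difference of tested genes in females (horizontal) and males (vertical), on the log2(TPM + 1) scale with standard errors, n = 3 per group; the dashed line marks equal differences. Most genes lie near the line, *Cxcl1* (3.96 in females, 1.74 in males) lies to its right with wide errors, and *Ccl24* (0.37 and 1.57) lies above it.

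Of 13 related genes that the symbol rule does not take in, 11 were tested and 8 were higher (5 after rescaling), beside 50.1% and 20.9% of all genes tested, with 0 lower as deposited. *Cx3cr1*, the fractalkine receptor of monocytes and macrophages, rose from 0.411 ± 0.301 to 7.89 ± 2.96 TPM (SD, n = 6 each; log2 fold change 2.61, SE 0.218), and its ligand *Cx3cl1* from 0.508 ± 0.158 to 4.25 ± 0.633 TPM (1.80, SE 0.102). *Cmklr1*, the chemerin receptor, rose by 1.75 (SE 0.177). All 12 tested genes of a list of signalling below chemokine receptors rose and held after rescaling, beside the same shares of all genes. That list, like the others, was chosen with earlier results of these data known. It was led by *Rgs2* (3.20) and *Rgs1* (2.43), which end G protein signals, and the beta-arrestin gene *Arrb1* (1.49). Of 9 tested leukocyte adhesion genes 7 rose, also after rescaling. They included the adhesion ligands *Icam1* (2.16, SE 0.131) and *Vcam1* (1.78, SE 0.146) and the leukocyte integrin chain *Itgb2* (1.78, SE 0.169). Such proteins let leukocytes attach to vessel walls, and which cells of the liver made these transcripts was not tested. Of the tested endothelial markers, 0 of 5 were higher and 1, *Kdr*, was lower (-0.62), against 2 lower after rescaling. Of the 6 stellate cell markers 2 rose (*Pdgfrb* by 1.84 and *Des* by 0.53) and 0 fell, and after rescaling 1 was higher and 2 were lower. Of 4 biliary markers 2 rose (*Spp1* by 3.76 and *Sox9* by 1.57) and 1 fell (*Epcam* by 0.35). *Spp1* is also made by macrophages. Of 6 hepatocyte markers 3 fell (*Cyp2e1* by 2.20, *Serpina1c* by 1.74 and *Ttr* by 1.10), and 4 were lower after rescaling. The part of these cell markers in the chemokine differences was not tested.

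The authors' deposited table gives its own comparison of KO with WT for the 49 genes. A total of 15 of them have, in the authors' deposited table, a false discovery rate printed under 0.05, 14 higher and 1 lower. Of these, 13 also passed here, and *Ccl9* and *Cxcl10* passed here only. The gene lower in the authors' deposited table is *Cxcl9*, at a fold change of -2.60, which did not pass here. *Cxcl5*, at a fold change of 7.78 in the authors' deposited table, was under the limit for testing here and passed without it. *Cxcl1* has a fold change of 2.55 in the authors' deposited table, and the ratio of mean TPM here was 4.34. For *Cxcl14* these values were 26.9 and 52.0, and for *Ccl24* they were 2.58 and 2.30, so the size of a difference depends on the method.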

How the data were processed

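Bulk RNA-seq of 12 liver samples was analysed from the authors' deposited table of TPM values per gene, in which each library sums to the same total. Build GRCm38 and the tool edgeR are named, without a role, per the submitters' processing notes. The aligner, the counter and the use of strand are not given in the sources used here. The same deposited table holds the authors' fold change, log fold change and false discovery rate for KO against WT, which are used only where named. The sequencing depth was recovered from the steps between TPM values (tolerance 0.02 reads), and whether these are reads or fragments is not known. Intervals from counts cover counting error only.

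Genes with a mean of at least 0.5 TPM were tested on log2(TPM + 1) with limma 3.58.1 in R 4.3.3 (trended variance, Benjamini-Hochberg adjustment over all 12278 genes, threshold 0.05). Fold changes on this scale understate those of low genes. The genotype comparison had sex as a covariate. The comparisons within sex, the interaction and the sex differences came from 1 model of the 4 group means. The fits were tested on simulated data. Alternatives were median-of-ratios rescaling, a pseudocount of 0.1, no limit or a limit of 1 on mean TPM, no variance trend, other covariates, and leaving out each library. Replicates were numbered in accession order.

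The genes, the cell marker lists and the pathway lists were chosen with earlier results of these data known. Values in every library are given for the genes past a threshold and for the most abundant ligand and receptor of each class, and for each marker or pathway list up to 3 genes with the largest difference past the threshold and defining markers near 0. Positions are from GENCODE on GRCm38, and promoter letters from RefSeq. Counts are over all genes of the rule, of which 1 item is not reported here.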

Additional observations from a re-analysis of the deposited data

Results flagged for a closer look

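Of 52 groups screened (26 genes, each in the 6 libraries of 1 genotype), in 8 groups 1 library stood apart from the other 5. The rule was a gap above the 95% limit of Dixon's gap test. About 1 in 20 groups, or 2.6 of 52, passes it by chance if values are normally distributed. TPM values are bounded at 0, each group holds both sexes and the genes share libraries. The 8 groups are therefore not to be read as an excess over 2.6. WT male 1 stood apart for 4 ligands: *Cxcl2* at 2.94 TPM (next WT library 0.570), *Ccl7* at 0.683 (next 0.121), *Ccl4* at 0.691 (next 0.232) and *Cxcl9* at 23.7 (next 8.92). WT female 1 stood apart for *Ccl6*, at 9.70 TPM beside 5.21 in the next WT library, and for *Ccl19*, at 1.98 beside 1.01. KO female 1 stood apart for *Cxcl16*, at 23.5 TPM beside 16.4 in the next KO library, and for *Ccl27a*, at 7.36 beside 3.69. The genotype calls of *Cxcl2*, *Ccl7*, *Ccl4*, *Ccl6* and *Cxcl16* held when the library concerned was left out.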

How the results depend on the processing

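Across the alternatives, 881 values kept their direction and their side of the threshold, 33 were no longer past it, 12 came to pass it and 5 changed sign. After rescaling, 4 genes were lower in KO livers of both sexes together, 1 in males and 3 in females, against 0 each as deposited. Without a variance trend 1 gene was lower in females, and without a limit on low values 0 genes were lower in WT males than in WT females, against 1. With single libraries left out, the genes higher by genotype numbered 15 to 17 and those lower 0 to 2. In males these were 11 to 13 and 0, and in females 11 to 14 and 0 to 2. Between the sexes in WT, 0 to 1 were higher and 0 to 3 lower in males. Without WT male 2, *Cxcl11* and *Ccl27a* were lower in KO livers. Without WT male 3, *Cxcl1* was higher and *Ccl27a*, *Cxcl11* and *Cxcl12* lower in WT males. *Ccl21a* changed sign after rescaling (-0.12) and without single libraries (range -0.15 to 0.36), and *Ccl5* after rescaling (-0.024). The cause was not tested. Adding a covariate for the 2 libraries whose label codes have the lowest numbers, or leaving out sex, left 15 genes higher. Genes with few reads are limited by depth. No paired analysis was possible because the labels give no replicate numbers.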
